A study of Mus musculus with 28 samples.

Results

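The 38 genes described here form the ATF4 arm of the integrated stress response. They were chosen by symbol, with earlier results of these data known. Each has a row in all 6 deposited tables, which list 33411 gene symbols. In the integrated stress response, kinases that sense amino acid shortage, unfolded protein, viral RNA or haem shortage phosphorylate the initiation factor eIF2. General translation then falls while translation of the Atf4 mRNA increases, and the ATF4 protein switches on genes that supply amino acids, charge tRNAs and feed back on the pathway. In macrophages the same genes meet inflammatory signalling, because several of them also respond to bacterial products. The list was split by role into 13 regulators and stress effectors, 9 enzymes of amino acid synthesis and one-carbon metabolism, 4 amino acid transport genes and 12 cytosolic tRNA synthetases.

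The cells were macrophages grown from the bone marrow of FVB/Hsd mice and used on day 7 of differentiation. Every culture, controls included, had been infected with retrovirus and kept in puromycin. Hairpins were directed at Pnuts (the gene Ppp1r10), at Set1a together with Set1b (the genes Setd1a and Setd1b), or at Wdr82 (sh1137). Controls were a scrambled hairpin in the Pnuts, Set1a+Set1b and DRB sets and the empty vector LMP in the remaining Wdr82 sets. Cells were untreated or given lipopolysaccharide (LPS, from bacterial outer membranes) at 10 ng/ml. In 1 set, cells exposed to LPS were also pre-treated with DRB, which blocks elongation by RNA polymerase II. Libraries were made from polyA RNA or from RNA tagged for 45 min with 4-thiouridine (4sU), which favours recently made transcripts. The times came from sample titles: 45 min in the Pnuts, Set1a+Set1b and DRB sets, 45 min, 2 h and 4 h in an unstranded 4sU Wdr82 set, 1 h in a stranded 4sU Wdr82 set, and 4 h in a polyA Wdr82 set. Each condition had 1 library per set, so a pair of libraries was compared without a test and has no replicate check. The labels name 1 hairpin construct for Wdr82, and they do not say how many mice were pooled.

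Values are FPKM (fragments mapped per kilobase, relative to library size), and ratios are log2((FPKM + 1)/(FPKM + 1)), which understates the change of low genes. A gene counted as measured in a pair when its FPKM reached 1 in either library and neither deposited status was other than OK. A call needed a 2-fold ratio. Read counts are absent from these values, and the depth is unknown. Of the 38 genes, 31 reached 1 FPKM in all 28 libraries and 20 reached 5 FPKM in all 28. Vldlr, a lipoprotein receptor, reached 1 FPKM in none. The defining macrophage markers were present, with 9 of 9 at 1 FPKM or more in every 4sU library and 8 or 9 of 9 in the polyA libraries, where Lyz2 is listed at 0 in 3 of 4. Of 10 neutrophil markers 1 to 7 reached that level, of 5 dendritic cell markers 0 to 3 and of 6 stromal markers 0 to 3. Erythroid markers numbered 0 or 1 of 5 at that level, mast cell and basophil markers 0 or 1 of 5, and B and T cell markers 0 to 2 of 8. Because these are bulk samples, fewer cells of a type and less RNA per cell cannot be told apart. The targeted genes did not all follow the labels. Ppp1r10 stood at 89.5 FPKM in the untreated scrambled library and 144 in the library labelled Pnuts sh, and at 203 and 332 after LPS, so that it was higher where the label says it was targeted. In the Set1a+Set1b set Setd1a was at 16.1 and 14.8 FPKM untreated and 18.1 and 13.5 after LPS, and Setd1b at 11.3 and 11.8, then 10.5 and 6.70, so that Setd1b was not lower in the untreated hairpin library. Wdr82 was at 21.6 and 10.3 in the untreated unstranded 4sU pair, and at 16.8 and 3.71 in the untreated polyA pair. Ppp1r10 was higher with sh1137 too, at 125 and 305 FPKM in the untreated stranded pair and 9.54 and 30.9 in untreated polyA RNA. The Pnuts set held 4sU libraries only, so polyA RNA of Ppp1r10 was not measured there. Because of the Ppp1r10 values, a direction in the Pnuts set is that of the library labelled Pnuts sh.

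**Figure D1:**
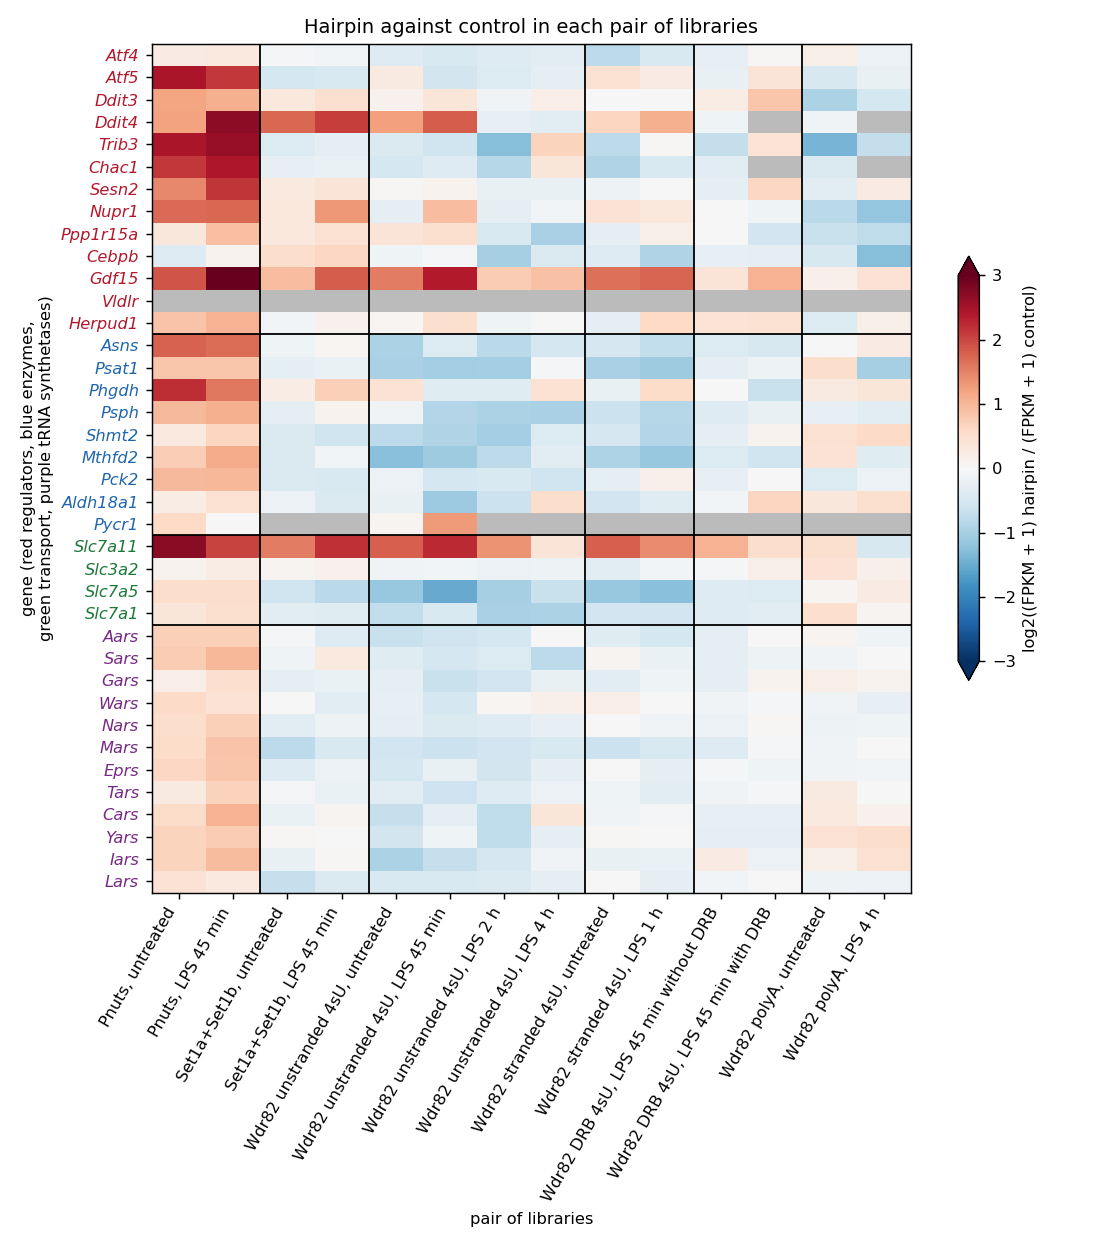
Heatmap of the log2 ratio, hairpin against control, for the 38 genes (rows, grouped by role) in the 14 pairs of libraries (columns, grouped by set); grey cells were not measured, and the colour scale saturates at 3 on either side. The 2 Pnuts columns are red for 36 and 37 of the 37 measured genes, while the Wdr82 4sU columns are mostly blue outside Slc7a11 and Gdf15.

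ATF4 and its dimer partners bind a composite C/EBP and ATF sequence, often written TGATGNAA, and members with that sequence near the start of transcription are shown first so that the values can be read beside them. RefSeq promoters (GRCm38.p6, 250 bases before the start and 50 after) were matched for 33 of the 38 genes by symbol or older symbol. Slc7a5, Wars, Nars, Cars and Lars had no entry. TGATGNAA on either strand (TTNCATCA on the printed strand when reversed) was found in 14 of the 33, against 3.97% of all 32851 promoters of the same length. A gene with several promoters counted once if any of them matched, whereas the share of all promoters counts each promoter, so the units differ. By role, it was found in 5 of 13 regulators, 3 of 9 enzymes, 1 of 3 transport genes and 5 of 8 tRNA synthetases. Other cytosolic tRNA synthetases held it in 0 of 5 genes with a promoter entry, mitochondrial tRNA synthetases in 0 of 15, and genes of the ATF6 and XBP1 branch in 0 of 18. Genes for eIF2, its kinases and its exchange factor held it in 1 of 11, and further reported ATF4 targets in 4 of 13. The ER stress element bound by ATF6 (CCAAT and CCACG with 9 bases between, either strand) was found in 0 of the 33 and in 8 of those 18, against 0.119% of all promoters. These are matches of letters, and no binding was measured. The mm9 coordinates of the expression tables belong to another build and were not mixed with these.

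The 250 bases before the start are printed for the 4 genes that had a match there and were at least 2-fold higher in both Pnuts pairs, with each match in capitals.
Chac1 (chr2:119350992-119351241, plus strand): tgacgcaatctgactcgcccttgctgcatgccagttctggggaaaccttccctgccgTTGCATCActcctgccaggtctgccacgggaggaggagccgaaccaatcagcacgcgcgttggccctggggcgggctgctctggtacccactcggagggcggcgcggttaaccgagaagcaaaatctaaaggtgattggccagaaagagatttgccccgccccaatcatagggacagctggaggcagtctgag
Nupr1 (chr7:126625471-126625720, minus strand): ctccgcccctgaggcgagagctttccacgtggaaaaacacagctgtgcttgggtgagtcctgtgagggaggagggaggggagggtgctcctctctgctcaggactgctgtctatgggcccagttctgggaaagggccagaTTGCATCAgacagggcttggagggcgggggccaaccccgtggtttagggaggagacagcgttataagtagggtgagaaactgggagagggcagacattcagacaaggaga
Asns (chr6:7693210-7693459, minus strand): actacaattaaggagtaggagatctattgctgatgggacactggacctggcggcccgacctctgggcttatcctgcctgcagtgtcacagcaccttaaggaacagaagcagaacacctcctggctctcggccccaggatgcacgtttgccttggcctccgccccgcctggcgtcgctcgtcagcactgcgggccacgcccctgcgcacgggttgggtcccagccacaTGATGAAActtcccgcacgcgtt
Slc7a11 (chr3:50443614-50443863, minus strand): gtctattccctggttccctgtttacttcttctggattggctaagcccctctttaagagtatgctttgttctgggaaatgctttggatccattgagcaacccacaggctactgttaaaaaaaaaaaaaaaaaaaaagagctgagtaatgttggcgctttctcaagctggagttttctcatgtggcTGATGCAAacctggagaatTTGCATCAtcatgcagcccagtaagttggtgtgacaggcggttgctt
The Asns match begins 23 bases before the start, and Slc7a11 holds 2 matches, on opposite strands, beginning 66 and 47 bases before it. The match of Chac1 begins 193 bases and that of Nupr1 110 bases before the start.

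For Trib3, whose only match lies just after the start (bases 15 to 22 of the transcript), and for 3 of the tRNA synthetases with a match, the match is shown with 10 bases on either side.
Trib3 (chr2:152344029-152344056, minus strand): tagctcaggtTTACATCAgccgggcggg
Tars (chr15:11399656-11399683, minus strand): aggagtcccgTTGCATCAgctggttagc
Yars (chr4:129189896-129189923, plus strand): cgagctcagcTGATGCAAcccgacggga
Iars (chr13:49682127-49682154, plus strand): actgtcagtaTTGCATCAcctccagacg
Tars and Iars carry the same 8 letters as Nupr1 and Chac1, on the same printed strand. Ratios in the Pnuts pairs, described next, were close for genes with and without a match. In untreated cells the 13 measured members with a match had a median log2 ratio of 0.85 and the 19 without one 0.73, and after LPS the medians were 1.00 and 0.91.

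The Pnuts pairs asked how the hairpin labelled Pnuts, against a regulatory subunit of protein phosphatase 1 that acts on RNA polymerase II complexes, altered nascent RNA before and after LPS. Most of the ATF4 genes had ratios above 0 in the libraries labelled Pnuts sh, and fewer than 1 in 2 passed 2-fold. Of 37 measured members, 36 had a ratio above 0 in untreated cells and 37 after LPS, against 52.2% and 56.8% of all genes measured. In untreated cells 11 of 37 were at least 2-fold higher (3.36% of 12812 genes) and 0 were 2-fold lower (2.47%). After LPS 16 of 37 were at least 2-fold higher (6.38% of 13031 genes) and 0 lower (3.84%). The members' median ratio was 0.68 and 0.91, beside 0.02 and 0.09 for all genes. The same 11 genes passed 2-fold in both pairs, as did 1.8% of all genes measured in both. They were Atf5, Ddit3, Ddit4, Trib3, Chac1, Sesn2, Nupr1, Gdf15, Asns, Phgdh and Slc7a11. The deposited confidence bounds of the 2 libraries did not overlap for 8 members in each pair, all higher (0.578% and 1.01% of all genes were higher by that rule). Among the 11 genes, the bounds of Atf5 and Ddit3 overlapped in both pairs, those of Ddit4 in untreated cells and those of Phgdh after LPS.

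Among the regulators, Atf4 itself differed little. Its FPKM was 239 in the scrambled and 285 in the library labelled Pnuts sh in untreated cells, and 449 and 550 after LPS, with ratios of 0.25 and 0.29. Downstream regulators differed far more. Trib3, a pseudokinase that inhibits ATF4 and AKT, was at 5.73 and 35.7 FPKM untreated and 6.07 and 42.4 after LPS (ratios of 2.45 and 2.62). Chac1, which degrades glutathione, was at 8.79 and 41.7, then 9.99 and 57.7. Both hairpin values lay above both scrambled values for these 2 genes. Atf5, a transcription factor whose translation is regulated like that of Atf4, was at 5.96 and 37.3, then 7.43 and 35.7, but its deposited bounds overlapped in both pairs. Atf5 shares its locus in the tables with Il4i1 and Nup62, so its reads may be uncertain.

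Other stress effectors followed the same direction. Ddit3, the pro-apoptotic factor CHOP, was at 49.1 and 112 FPKM and, after LPS, at 62.1 and 130. It shares a locus with Mars, which had lower ratios of 0.54 and 0.85. Sesn2, an mTORC1 inhibitor that senses leucine, was at 10.8 and 31.1, then 8.29 and 39.8. Gdf15, a secreted stress hormone, was at 5.41 and 22.8 untreated and at 12.3 and 105 after LPS. The LPS library labelled Pnuts sh thus held the highest Gdf15 value of its set, 2.99 above its control on the log2 scale. Controls differed for this gene, as the scrambled LPS library of the Set1a+Set1b set held 24.7 FPKM. Trib3 was at 6.07 and 6.91 in the same 2 controls. Ddit4, another mTORC1 inhibitor, was at 1.79 and 5.43, then 2.42 and 21.0. Nupr1, a chromatin-associated stress protein, was at 9.99 and 34.5, then 26.3 and 88.5.

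The 3 remaining expressed regulators were closer to their controls. Herpud1, which acts in the degradation of ER proteins, had ratios of 0.85 and 1.05. Ppp1r15a, the GADD34 subunit that dephosphorylates eIF2, had 0.34 and 0.91. Cebpb, a partner of ATF4 and a main macrophage factor, was the exception to the common direction, with 39.0 and 29.7 FPKM untreated and 99.5 and 107 after LPS. Its locus overlaps several other genes.

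**Figure D2:**
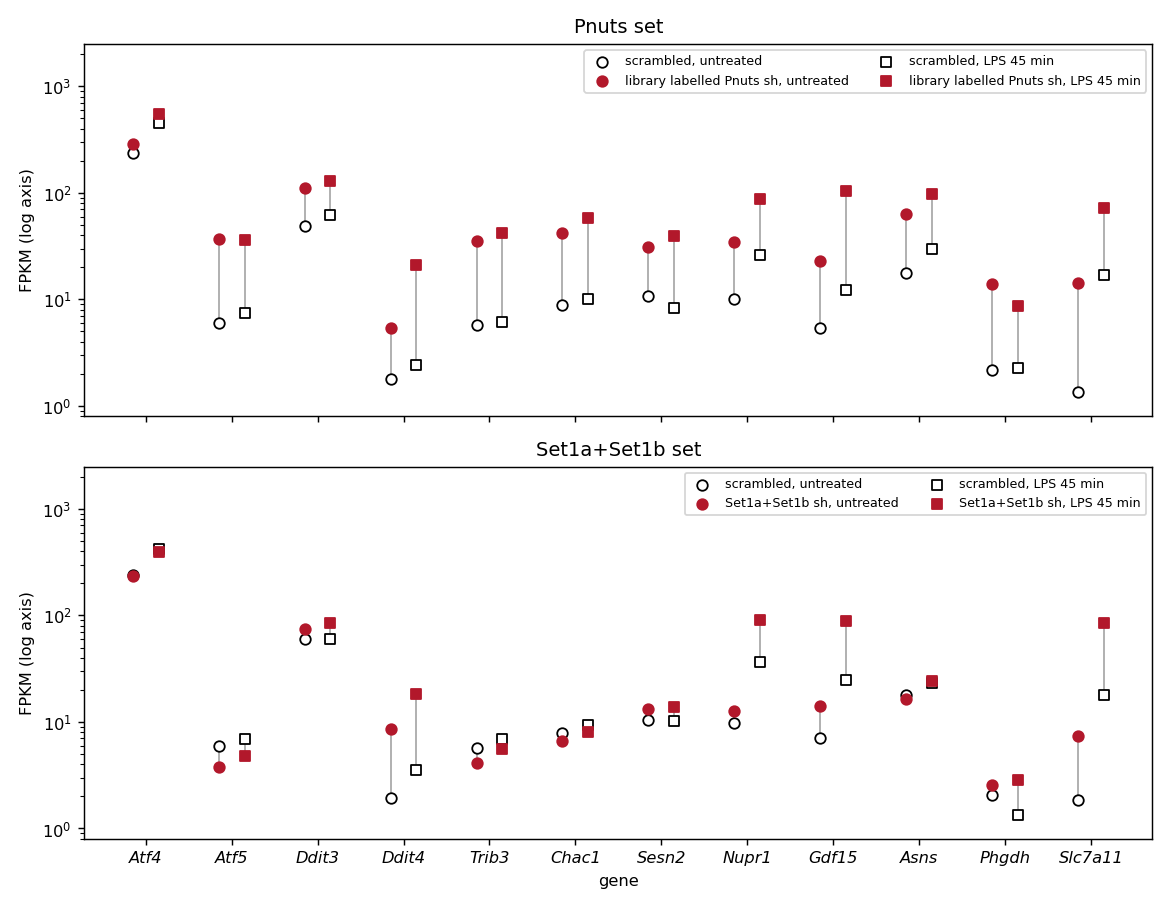
FPKM on a log axis for Atf4 and the 11 genes that were at least 2-fold higher in both Pnuts pairs, in the 4 Pnuts libraries (upper panel) and the 4 Set1a+Set1b libraries (lower panel); open symbols are scrambled controls, filled symbols hairpin libraries, circles untreated and squares 45 min LPS, and a line joins each pair. Trib3 goes from 5.73 to 35.7 in the untreated Pnuts pair and from 5.72 to 4.10 in the untreated Set1a+Set1b pair.

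The 9 enzymes all had ratios above 0 in both pairs, with medians of 0.83 and 1.00. Of the 9, 2 passed 2-fold in untreated cells and 5 after LPS. Asns, asparagine synthetase, was at 17.8 and 62.9 FPKM untreated and at 30.0 and 98.4 after LPS. Of the 3 enzymes of the serine pathway, Phgdh passed 2-fold in both pairs, Psph after LPS alone and Psat1 in neither. Phgdh, the first enzyme, went from 2.17 to 13.8 and from 2.27 to 8.72. Psat1, the second, was at 32.3 and 58.3, then 27.4 and 49.9, and Psph, the last, at 7.15 and 14.9, then 8.36 and 18.5. The mitochondrial folate enzyme Mthfd2 was at 47.9 and 80.0, then 42.0 and 91.7, and its partner Shmt2 at 28.2 and 34.8, then 26.8 and 42.4. Pck2, mitochondrial phosphoenolpyruvate carboxykinase, had ratios of 0.97 and 1.00. The proline pathway enzymes Aldh18a1 (0.22 and 0.46) and Pycr1 (0.59 and 0.02) were among the smallest, and Pycr1 was never above 1.42 FPKM in these libraries.

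In amino acid transport the difference was mainly that of 1 gene. Slc7a11, the cystine carrier of system xc-, was at 1.36 and 14.3 FPKM untreated and at 16.9 and 72.3 after LPS. Its heavy chain Slc3a2, shared with other carriers, was at 145 and 157, then 174 and 205. The leucine carrier Slc7a5 (0.53 and 0.52) and the arginine carrier Slc7a1 (0.36 and 0.48) had ratios near the tRNA synthetases.

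The 12 tRNA synthetases were all above 0 in both pairs but within a narrow range, from 0.21 to 0.75 untreated and from 0.29 to 1.04 after LPS. Cars, the cysteinyl enzyme, was the 1 of 12 that passed 2-fold, at 45.8 and 95.4 FPKM after LPS. Sars, the seryl enzyme, was at 60.9 and 103, then 67.5 and 135. Aars, the alanyl enzyme, was at 41.5 and 69.1, then 50.8 and 84.1. Medians were 0.56 and 0.74.

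Synthetases outside the ATF4 list did not share this direction. The 8 other cytosolic synthetases had medians of -0.16 and -0.29, with 3 of 8 above 0 in each pair. The 2 with the largest differences were both lower. Hars, the histidyl enzyme, was at 32.2 and 20.3 FPKM, then 37.8 and 26.8, and Kars, the lysyl enzyme, at 27.3 and 20.3, then 31.1 and 22.3. The 16 measured mitochondrial synthetases had medians of -0.06 and -0.11, with 6 of 16 above 0 in each pair. Among the 13 genes for eIF2 kinases, eIF2 and its exchange factor, medians were 0.00 and -0.08, and 0 and 1 passed 2-fold. That 1 was Eif2s2, the beta subunit of eIF2, at 29.9 and 47.4, then 43.9 and 97.0. The 21 genes of the ATF6 and XBP1 branch, the other arms of the unfolded protein response, had medians of -0.13 and -0.10, and 0 and 1 passed 2-fold. The 1 was Ero1l, an ER oxidase, at 9.20 and 17.4, then 14.1 and 42.2. Of 18 further genes reported as ATF4 targets, 5 of 15 measured passed 2-fold untreated and 6 of 16 after LPS, with medians of 0.70 and 0.85. They included the growth arrest gene Gadd45a, at 12.0 and 37.9, then 98.8 and 268. They also included the translation repressor gene Eif4ebp1, at 34.8 and 73.6 in untreated cells (38.9 and 71.0 after LPS). No test of 1 list against another was made. The members and these lists were chosen with earlier results of these data known. The part of that choice in the difference between lists was not tested.

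**Figure D3:**
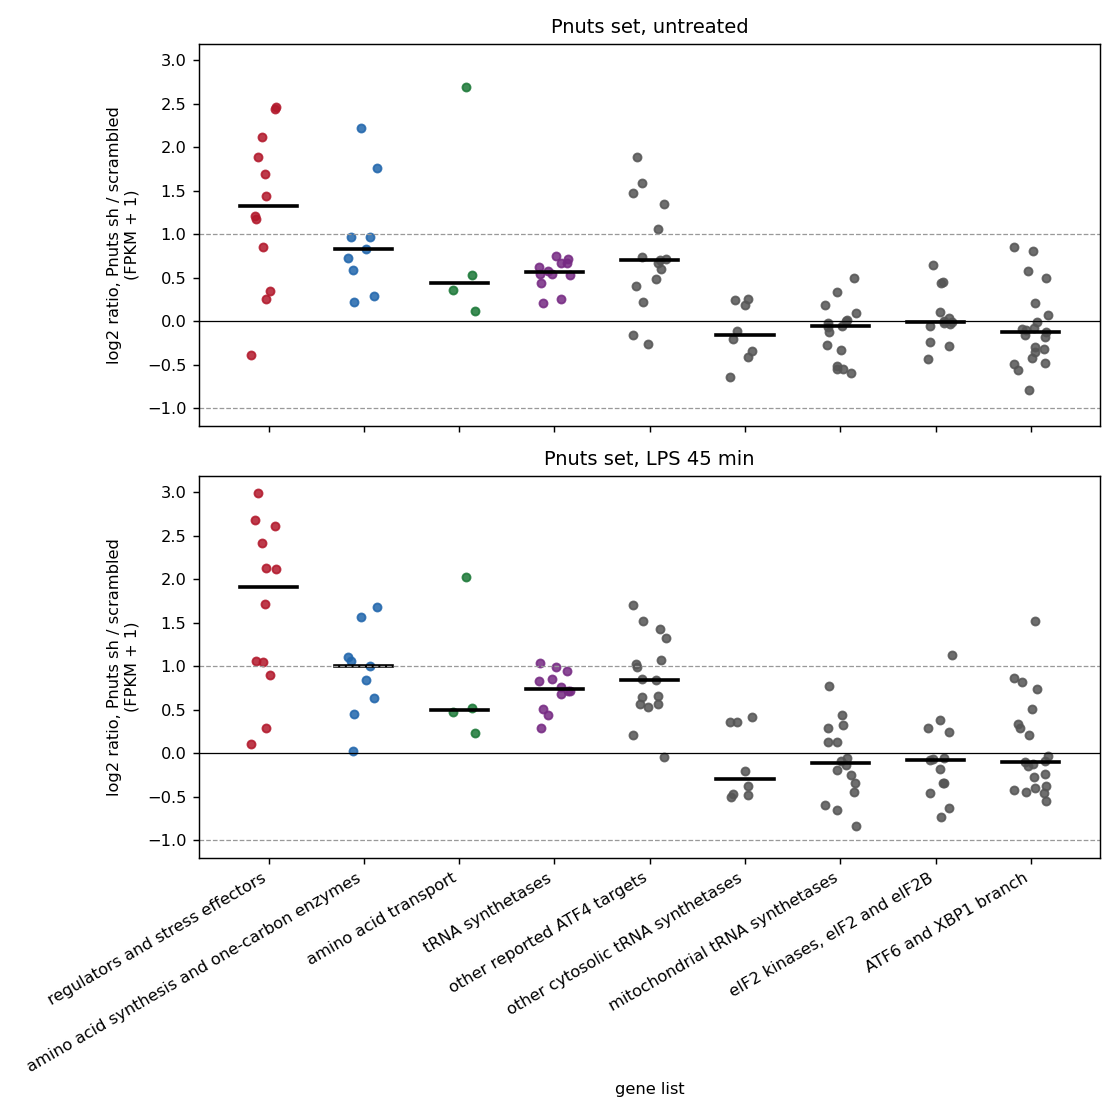
Log2 ratio of the library labelled Pnuts sh to the scrambled control for each measured gene (points) of the 4 ATF4 groups (coloured) and 5 comparison lists (grey), untreated (upper panel) and after 45 min of LPS (lower panel); black bars are list medians and dashed lines mark 2-fold. The 12 synthetases of the ATF4 list centre on 0.56 and 0.74, the 8 other cytosolic synthetases on -0.16 and -0.29.

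Other measures moved along with these pairs. The summed FPKM of the 9 macrophage markers was 3382 in the scrambled and 7166 in the library labelled Pnuts sh in untreated cells, and 5093 and 9727 after LPS. Most of it was Lyz2, lysozyme, at 2017 and 6042 in untreated cells, and 2 of the 9 markers were 2-fold higher there while 5 had a ratio below 0. The 10 neutrophil markers summed to 26.0 and 12.3, then to 30.2 and 8.14, with Ly6g at 0 in all 4 libraries. The step that 1 fragment makes in the FPKM of low genes put the LPS library labelled Pnuts sh at 1.56-fold less depth than its control, and the untreated pair within 1.00-fold. The part of these differences in the result was not tested.

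The Set1a+Set1b set, built with the same design, gave another pattern. By the fragment step of low genes its hairpin libraries were 1.31-fold (untreated) and 1.04-fold (LPS) deeper than their controls. Of 36 measured members, 2 were at least 2-fold higher in untreated cells (2.52% of 12833 genes) and 4 after LPS (3.44% of 12875). In neither pair was a member 2-fold lower (0 in each, against 1.72% and 2.5%). Medians were -0.15 and -0.08. The 2 that passed in both pairs were Slc7a11, at 1.85 and 7.32 FPKM, then 17.9 and 85.8, and Ddit4, at 1.95 and 8.68, then 3.56 and 18.2 (0.97% of genes passed in both). Gdf15 was at 7.03 and 14.3, then 24.7 and 89.0, and Nupr1 at 9.85 and 12.6, then 36.3 and 91.0, so that both passed after LPS alone. The other genes that led the Pnuts pairs did not lead here. Trib3 was at 5.72 and 4.10, then 6.91 and 5.51. Atf5 was at 5.92 and 3.80, then 6.99 and 4.80, and Asns at 17.9 and 16.3, then 23.2 and 24.1. Below 0 in both pairs stood 19 of the 36 members (33.9% of genes), among them 8 of the 12 tRNA synthetases. Above 0 in both pairs stood 10 of the 36 (36.8% of genes). Those included Ddit3, Sesn2 and Phgdh, which passed 2-fold in both Pnuts pairs but in neither pair here. The macrophage marker sum was higher in these hairpin libraries too, at 3385 and 5747 untreated and at 5132 and 8909 after LPS, while the neutrophil marker sum went the other way from the Pnuts set, at 8.48 and 35.0, then 12.2 and 41.1 (2 and 5, then 2 and 6 of 10 markers at 1 FPKM or more). The part of these in the result was not tested.

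Wdr82 is a subunit shared by the Set1 complexes and the complex that holds Pnuts. In the unstranded 4sU set, the 4 pairs (untreated, 45 min, 2 h and 4 h of LPS) were fitted together with limma, with vector and time as terms and 3 residual degrees of freedom. This treats the times as repeats, and the labels do not say that they came from separate infections. By the fragment step of low genes, the sh1137 library was 1.52-fold deeper than LMP at 2 h. It was 1.06-fold to 1.09-fold deeper in the other pairs, and the part of depth in the result was not tested. Pair by pair, 3 members were at least 2-fold higher (4.66% of genes) and 2 lower (2.03%) in untreated cells, 4 (7.8%) and 4 (2.87%) at 45 min, 1 (6.37%) and 4 (3.09%) at 2 h, and 0 (6.47%) and 0 (3.24%) at 4 h. In the fit against LMP, 2 of 37 members were higher with sh1137 (6.59% of 15546 genes) and 12 were lower (6.77%) at an adjusted p under 0.05. The 2 that rose were Slc7a11, by 1.44 ± 0.30 (SE; limma, adjusted p = 0.0381), and Gdf15, by 1.39 ± 0.29 (adjusted p = 0.0368), each higher in 4 of 4 pairs. The 12 that fell were 6 synthetases (Mars, Sars, Lars, Nars, Gars and Eprs), 3 enzymes (Shmt2, Asns and Mthfd2), 2 transport genes (Slc7a5 and Slc7a1) and Atf4, each lower in 4 of 4 pairs. Slc7a5 differed by -1.08 ± 0.15 (adjusted p = 0.0167), Mthfd2 by -0.86 ± 0.16 (adjusted p = 0.0305) and Atf4 by -0.39 ± 0.06 (adjusted p = 0.0172). All 12 synthetases of the list had an estimate below 0, with a median of -0.42, and so had 7 of 8 other cytosolic synthetases (median -0.29) and 14 of 16 mitochondrial ones (median -0.35). In the same fit 7 of 21 genes of the ATF6 and XBP1 branch were lower and 1 higher. Macrophage markers also moved, with 4 of 9 lower, among them Fcgr1 (-1.20) and Cd14 (-1.04), and 2 higher, among them Mrc1 (1.14). Of the 2 B and T cell markers tested, Cd4 (0.89) was higher, while Cd79b (-0.38) was not called. The smooth muscle gene Acta2 (0.85), the 1 stromal marker tested, was higher. These are low genes, as the B and T cell list summed to at most 5.41 FPKM in any 4sU library and the stromal list to at most 12.2. The macrophage marker sum was 2441 with LMP and 2446 with sh1137 untreated, 4326 and 3430 at 45 min, 3934 and 3144 at 2 h, and 5068 and 3839 at 4 h. Neutrophil markers summed to 27.2 and 39.2, 42.8 and 36.2, 49.4 and 60.9, and 62.9 and 87.1. The part of these in the result was not tested.

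Fewer members were called when a time point was left out. Without the untreated, the 45 min or the 2 h pair, 1, 0 and 0 members were lower and 0 were higher in each case, and without the 4 h pair 8 were lower and 1 was higher. The calls over all genes fell with them, to 1.02%, 0.524%, 1.09% and 3.56% lower and 1.45%, 0.675%, 1.3% and 3.33% higher. At an unadjusted p under 0.05, 20, 21, 20 and 25 of the 37 members passed in those 4 fits (25.8%, 25.1%, 26.6% and 29.8% of all genes), against 21 of 37 in the fit of all 4 pairs (32.4% of all genes). Over the alternatives tried, the adjusted p of Slc7a11 ran from 0.0263 to 0.121, that of Gdf15 from 0.0227 to 0.118 and that of Slc7a5 from 0.0131 to 0.0694. The values show the course of single genes. Slc7a5 was at 10.7 (LMP) and 4.29 FPKM (sh1137) untreated, 12.0 and 3.55 at 45 min, 14.4 and 6.71 at 2 h, and 7.00 and 4.01 at 4 h. Slc7a11 was at 0.79 and 5.20, 7.64 and 39.9, 20.4 and 53.2, and 44.3 and 58.3, with ratios of 1.79, 2.24, 1.34 and 0.39. Gdf15 was at 5.49 and 17.9, 20.1 and 109, 2.29 and 4.55, and 3.35 and 7.03. Asns was at 14.6 and 7.12, 16.5 and 12.1, 19.3 and 10.6, and 11.0 and 7.28. Mars and Ddit3 share a locus in the tables, which makes their values less certain in these unstranded libraries.

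**Figure D4:**
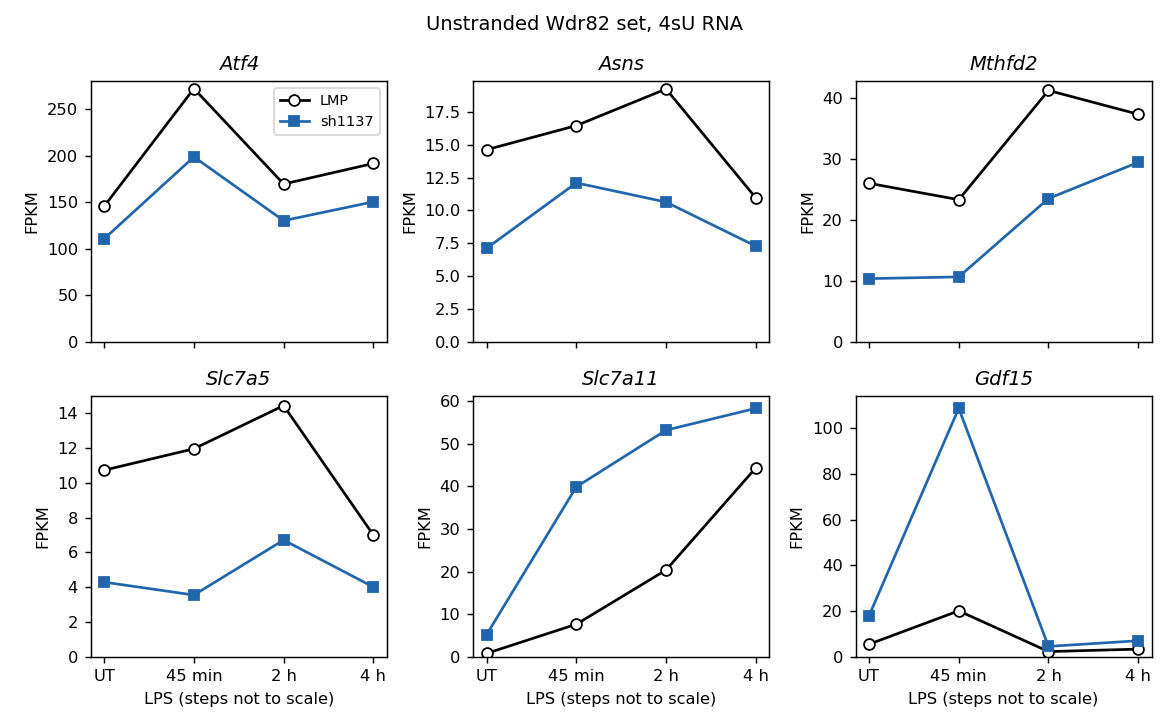
FPKM of 6 genes in the 8 unstranded 4sU libraries of the Wdr82 set, LMP (open circles) and sh1137 (squares), untreated (UT) and after 45 min, 2 h and 4 h of LPS; each point is 1 library and time steps are not to scale. Atf4, Asns, Mthfd2 and Slc7a5 lie lower with sh1137 at each time, while Slc7a11 and Gdf15 lie higher, Gdf15 at 20.1 and 109 at 45 min.

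The other Wdr82 sets were read beside that fit without a test. In the stranded set the sh1137 libraries had 1.34-fold (untreated) and 1.65-fold (1 h) less depth than LMP. The part of this in the result was not tested. The stranded set had 2 of 36 members at least 2-fold higher in untreated cells (6.79% of genes) and 1 lower (3.07%). At 1 h, 3 were higher (7.34%) and 3 lower (4.27%). Slc7a11 was at 2.68 and 11.9 FPKM untreated and at 7.11 and 20.6 at 1 h, and Gdf15 at 2.25 and 9.23, then 8.05 and 29.1. Slc7a5 was at 9.49 and 3.77, then 7.95 and 2.72, and Mthfd2 at 32.0 and 16.2, then 38.4 and 16.9. In the DRB set without DRB, whose control is scrambled, 1 of 36 was higher (3.71%) and 0 were lower (1.56%). The 1 was Slc7a11, at 10.2 and 22.3, while Slc7a5 was at 12.4 and 9.30 and Gdf15 at 25.6 and 33.9. With DRB, 1 of 34 was higher (3.99%), Gdf15 at 2.51 and 6.27, and 0 were lower (4.7%). Over the 7 Wdr82 pairs of 4sU RNA without DRB, Slc7a11 and Gdf15 were above 0 in 7 of 7 (13.7% of genes), and 15 of 36 members were below 0 in 7 of 7 (15.5% of genes). Those 15 were Atf4, Cebpb, Asns, Psat1, Psph, Shmt2, Mthfd2, Slc3a2, Slc7a5, Slc7a1, Gars, Nars, Mars, Eprs and Tars.

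PolyA RNA of the same knockdown was read beside these sets, and the difference between RNA types was not tested. Here the sh1137 library was 1.57-fold deeper than LMP in untreated cells and 1.09-fold deeper at 4 h. In untreated cells 0 of 36 members were 2-fold higher (2.83%) and 1 was lower (2.56%), and at 4 h of LPS 0 of 34 were higher (3.55%) and 3 lower (2.81%). Trib3 was at 6.79 and 1.95 FPKM untreated and 2.17 and 0.92 at 4 h. Nupr1 was at 20.3 and 11.3, then 89.1 and 39.2, and Cebpb at 37.6 and 26.8, then 88.8 and 35.8. Psat1, the third called at 4 h, was at 9.50 and 14.2 untreated and 36.8 and 17.9 at 4 h. Slc7a5 was at 7.38 and 7.93, then 7.73 and 9.28, and Slc7a11 at 1.73 and 2.81, then 34.2 and 24.2. The enzymes had medians of 0.29 (6 of 8 above 0) and 0.03 (4 of 8), the transport genes 0.46 (4 of 4) and 0.12 (3 of 4), and the synthetases -0.01 and -0.01. Among the enzymes Psph was at 8.22 and 6.79, then 7.23 and 5.58, and Mthfd2 at 13.3 and 18.4, then 51.7 and 40.0.

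LPS itself went with higher values of a small part of the list. By the fragment step of low genes, each LPS library had less depth than its untreated library. The gap ran from 1.10-fold (LMP at 1 h, stranded) to 3.04-fold (sh1137 at 4 h, polyA), and its part in the result was not tested. In the 8 pairs of 4sU RNA with 45 min or 1 h of LPS, which share their libraries with the hairpin pairs above, 5 to 8 members were at least 2-fold higher in each pair and 0 were lower. The higher members numbered 6 with scrambled (5.22% of genes) and 7 with the hairpin (8.04%) in the Pnuts set, and 6 (5.22%) and 6 (5.79%) in the Set1a+Set1b set. In the Wdr82 sets they numbered 6 with LMP (5.53%) and 8 with sh1137 (8.2%) in unstranded RNA and 5 (3.81%) and 5 (4.08%) in stranded RNA. Genes 2-fold lower made up 2.89%, 3.7%, 2.87%, 3.24%, 3.99%, 3.44%, 2.97% and 3.83% of all genes in the same order. Nupr1, Ppp1r15a, Cebpb and Gdf15 passed in 8 of 8, and Slc7a11 and Herpud1 in 7 of 8. Ppp1r15a went from 27.9 to 302 FPKM in the scrambled control of the Pnuts set, from 33.5 to 336 in that of the Set1a+Set1b set and from 13.6 to 267 with LMP in the unstranded set. Its deposited bounds overlapped in both of those scrambled pairs. It shares its locus with Dhdh, Nucb1 and Tulp2, so its reads may be uncertain. In the limma fit of the unstranded set, 7 of 37 members were higher at 45 min (5.38% of genes) and 0 lower (2.3%), 9 were higher at 2 h (17.3%) and 1 lower (9.29%), and 9 were higher at 4 h (28.4%) and 3 lower (16%). For these contrasts the LMP and sh1137 libraries of a time, 1 of each, served as repeats. A response to LPS that differed between control and Wdr82 hairpin cells was averaged, and its difference entered the error. Ppp1r15a rose by 4.24 ± 0.37 (SE) at 45 min (limma, adjusted p = 0.00458) and by 2.09 ± 0.37 at 2 h (adjusted p = 0.0140). Atf4 rose by 0.87 ± 0.08 at 45 min (adjusted p = 0.00505), from 146 to 272 FPKM with LMP and from 111 to 199 with sh1137. Slc7a11 rose by 2.50 ± 0.43 at 45 min and by 3.96 ± 0.43 at 4 h (adjusted p = 0.0309 and 0.00128). Without the 2 h pair the 45 min contrast called 5 members higher (3.36% of genes). In their least favourable alternatives Slc7a11 and Gdf15 at 45 min reached adjusted p of 0.0677 and 0.0771.

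Some members turned with time. Gdf15 rose by 2.12 ± 0.40 at 45 min (limma, adjusted p = 0.0408), but at 2 h its estimate was -1.37 ± 0.40 (adjusted p = 0.0588), and it stood below the untreated value in 4 of 4 pairs at 2 h and 4 h. Ddit3 had an estimate of 0.09 ± 0.14 at 45 min (adjusted p = 0.753) and fell by 1.32 ± 0.14 at 2 h (adjusted p = 0.00294), from 34.3 to 14.4 FPKM with LMP and from 37.7 to 13.3 with sh1137. The tryptophanyl enzyme Wars, which interferon also induces, was the 1 synthetase to rise at 4 h, by 1.74 ± 0.19 (adjusted p = 0.00129), from 17.3 to 51.7 FPKM with LMP and from 14.3 to 57.7 with sh1137. At 4 h Pck2 fell by 1.23 ± 0.16 (adjusted p = 0.00276), the tyrosyl enzyme Yars by 0.94 ± 0.17 (adjusted p = 0.00851) and Shmt2 by 0.67 ± 0.17 (adjusted p = 0.0272). Trib3 and Chac1, which were high in the Pnuts pairs, were not called at any LPS time in the limma fit. By the 2-fold rule both were lower at 4 h with LMP in 4sU RNA, Trib3 at 3.38 and 0.40 and Chac1 at 3.83 and 1.24 FPKM, and Trib3 also in polyA RNA with LMP, at 6.79 and 2.17.

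With DRB, the ratios of the regulators and of the tRNA synthetases lay apart. After 45 min of LPS, 14 of 36 measured members were at least 2-fold lower with DRB in scrambled cells (15.7% of 13031 genes) and 14 of 36 with sh1137 (15.4% of 13302), and 0 were higher (16.4% and 13.4%). Of the 12 regulators 11 were lower in each vector, with medians of -2.52 and -2.10. Chac1 went from 20.6 to 0.74 FPKM in scrambled and from 16.4 to 0.63 in sh1137 cells. Ddit3 went from 67.5 to 4.78 and from 78.7 to 9.37, and Atf4 from 378 to 77.0 and from 317 to 79.0. Atf5 was the regulator that did not pass, at 6.44 and 6.06 in scrambled and 5.33 and 8.30 in sh1137 cells. The 12 synthetases had medians of 0.08 and 0.13, and 0 passed 2-fold. Lars was at 15.8 and 23.4, then 14.7 and 23.7, and Aars, at 52.2 and 26.2, then 42.7 and 26.0, was the lowest of them in scrambled cells with a ratio of -0.97. Between these groups, Asns (-1.11 and -1.19), Mthfd2 (-1.44 and -1.64) and Slc7a11 (-1.01 and -1.54) passed 2-fold in both vectors. FPKM is a share of each library, so a ratio with DRB shows a change relative to the other RNA of the library and not an amount per cell. The DRB libraries had 1.94-fold and 2.32-fold less depth than those without DRB, by the fragment step of low genes, and the part of this in the result was not tested.

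**Figure D5:**
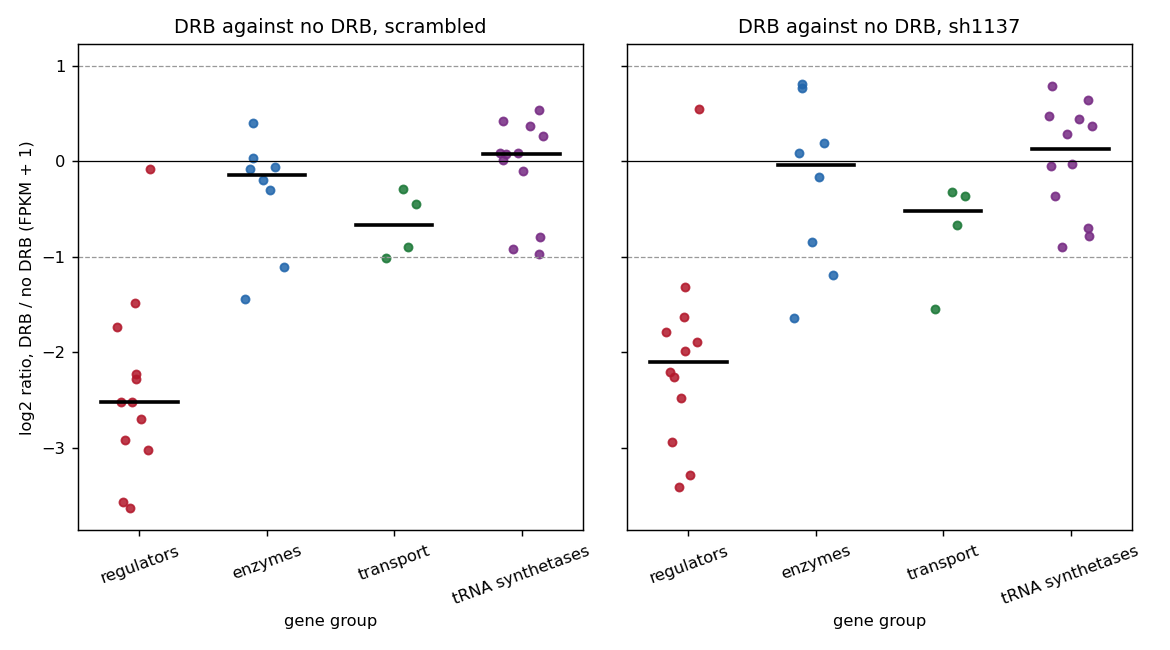
Log2 ratio of DRB to no DRB after 45 min of LPS for each measured gene (points) of the 4 ATF4 groups, in scrambled (left) and sh1137 (right) cells; black bars are group medians and dashed lines mark 2-fold. Regulators centre on -2.52 and -2.10 and tRNA synthetases on 0.08 and 0.13.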

How the data were processed

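RNA-seq libraries of mouse bone marrow-derived macrophages were used as deposited: 28 libraries in 6 tables. Per the submitters' processing notes, the tools were TopHat 1.3.1, Cufflinks 2.1.1 and Cuffdiff 2.1.1 and the build mm9. The deposited values are FPKM with lower and upper confidence bounds and a status, per the file headers. Neither the annotation nor the scaling, the use of strand and the level of the bounds is stated in those notes or in the headers. A symbol listed more than once was taken from its row with the highest mean FPKM.

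Ratios were computed within a table, with a pseudocount of 1 FPKM, in Python 3.11.15 (pandas 2.3.3). The fit of the unstranded set used limma 3.58.1 on log2(FPKM + 1), with a trended prior. Benjamini-Hochberg adjustment ran over 15546 genes that reached 1 FPKM in any of the 8 libraries. Vector by time is the residual of the fit. Differences between times in the hairpin effect, or between vectors in the LPS effect, are therefore not separable from error. The fit was also run on simulated data with independent noise of its own residual spread. Such data cannot show whether times or vectors are sound repeats.

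The members and the comparison lists were chosen with earlier results of these data known. All 38 members are accounted for. For comparison lists other than cell markers, the genes given Pnuts values are among the 3 with the largest mean Pnuts log2 ratio. The ranking was by absolute size, in either direction, at 5 FPKM or more and status OK. The cell markers named were not all chosen by that rule, and those given for the Wdr82 fit were named from that fit. Lars2 was not measured, because its status was not OK in the Pnuts set. Locus overlap affects 16 members. Alternatives were another pseudocount, filter, centring, fold and prior, calls by deposited bounds, and leaving out each time point.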

Additional observations from a re-analysis of the deposited data

Results flagged for a closer look

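Members for which every pair of 1 hairpin was at least 2-fold from its control and every pair of another hairpin lay on the other side of 0 are given by their median log2 ratio. Atf5 had a median of 2.29 in the 2 Pnuts pairs and -0.49 in the 2 Set1a+Set1b pairs. Trib3 had 2.53 and -0.34 in the same pairs, and Chac1 had 2.27 and -0.21. Asns had 1.72 in the Pnuts pairs and -0.53 in the 7 Wdr82 pairs of 4sU RNA without DRB. These differences between hairpins were not tested, and most of the Wdr82 pairs also differ from the Pnuts pairs in control vector and library kit.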

How the results depend on the processing

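Counts of member calls summed over the pairs of a set depend on the call rule. At a 1.5-fold call, higher calls went from 27 to 49 in the Pnuts set (36.5% to 66.2% of its member values, against 4.88% to 14.0% over all genes). They went from 2 to 5 in the DRB set (3.85% to 10.1% over all genes). For DRB against no DRB they went from 0 to 4 (14.9% to 31.5% over all genes). Lower calls at 1.5-fold went from 0 to 5 in the Set1a+Set1b set, from 10 to 40 in the unstranded (6.85% to 27.4%, against 2.81% to 9.62% over all genes), 4 to 15 in the stranded and 4 to 9 in the polyA Wdr82 sets, from 0 to 3 in the DRB set, and from 19 to 40 over the LPS pairs. By that rule 6.77% of all gene values were lower in the Set1a+Set1b set, 10.9% in the stranded, 9.79% in the polyA and 9.66% in the DRB set, and 13.4% over the LPS pairs. Where the deposited bounds had to be apart, higher calls were 16 in the Pnuts set (21.6%, against 0.797% over all genes). They were 0 (of 8) in the unstranded set, 0 (of 2) in the DRB set and 19 (of 84) over the LPS pairs. Over all genes, that rule called 0.439% higher in the unstranded set, 0.257% in the DRB set and 1.62% over the LPS pairs (members 3.72%). Lower calls by that rule were 0 (of 10) in the unstranded, 1 (of 4) in the stranded and 0 (of 4) in the polyA sets, 0 (of 19) over the LPS pairs and 10 (of 28) for DRB. Of all gene values, 0.0144%, 0.524%, 0.0539%, 0.355% and 2.27% were lower by it in the same order, beside 13.9% of member values for DRB. A pseudocount of 0.1 gave 19 lower calls in unstranded Wdr82 RNA (13.0%, against 4.65% over all genes) and 8 in stranded Wdr82 RNA (11.1%, against 5.57%). Over the LPS pairs it gave 32 (6.26%, against 8.81%).

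In the limma fit of sh1137 against LMP, no filter and a prior without a trend each left 0 members higher (of 2) and 9 lower (of 12). Over all genes, 3.19% were higher and 3.14% lower without a filter, and 5.36% and 4.64% without a trend. Leaving out 1 time point gave 0 to 1 higher and 0 to 8 lower (0.675% to 3.33% and 0.524% to 3.56% of all genes). For LPS it gave 5 to 6 higher and 0 lower at 45 min, 8 to 11 higher and 2 lower at 2 h, and 9 higher and 3 to 4 lower at 4 h. Those fits called 3.36% to 4.68% of all genes higher and 0.944% to 1.62% lower at 45 min. The shares were 15.5% to 16.8% and 7.33% to 9.07% at 2 h, and 26.8% to 27.4% and 14.7% to 14.8% at 4 h. At 2 h, a pseudocount of 0.1 and a filter at 5 FPKM each gave 2 lower in place of 1 (9.3% and 10.9% of all genes). Of 5446 values of single members and medians under an alternative, 72 were counted as moved by 0.25 or more. A call was lost in 76, gained in 21 and reversed in 0. The remaining 5277 had none of these changes counted, which does not mean that each kept its side of 0 or its size. In the limma fit, centring on the library median took the members' median at 4 h of LPS from 0.03 to -0.05. No paired analysis was possible because the labels carry no replicate numbers, other than the pairing of vectors by time that the limma fit already holds. With no counts and 1 library per condition, neither depth nor biological spread could be separated from the hairpin in a single pair, and low genes such as Pycr1, Phgdh and Ddit4 are the least certain.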

Other observations

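Herpud1 and Psat1 went in opposite directions with LPS in newly made and in polyA RNA. With LMP, Herpud1 was at 23.7 FPKM untreated and 44.9 at 4 h in 4sU RNA, and at 56.5 and 18.6 in polyA RNA. Its log2 ratio was above 0 in 12 of 12 LPS pairs of 4sU RNA and below 0 in 2 of 2 polyA pairs. Psat1 with LMP was at 23.8 and 11.5 in 4sU RNA and at 9.50 and 36.8 in polyA RNA. With sh1137 the polyA difference was smaller, at 14.2 and 17.9. Its ratio was below 0 in 12 of 12 LPS pairs of 4sU RNA and above 0 in 2 of 2 polyA pairs. The 4sU and polyA values come from tables that were scaled separately, several 4sU pairs share an untreated library, and the difference was not tested.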
